A study of Mus musculus with 4 samples.

Results

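Best2, a bestrophin chloride and bicarbonate channel, was examined together with 9 other genes of anion, bicarbonate, proton and water transport in mouse small-intestinal crypts. The 10 listed genes are the carbonic anhydrases Car1, Car2 and Car4, the anion channels Best2 and Cftr, the anion exchangers Slc26a3 and Slc26a6, the sodium-proton exchangers Slc9a2 and Slc9a3, and the water channel Aqp8. They were found by symbol in 2 tables of gene-level fasting comparisons, which hold 27425 genes between them. All 10 stand in the table of mice that received tetracycline and 9 in the table of mice that did not, where Car1 has no row. The list was drawn up with results known: Best2 and Car1 were chosen from their fasting change with tetracycline, so for these genes that change is given as a description with no test.

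Crypts are the pits of the gut lining that hold its stem cells, and here they came from male C57BL/6J mice aged 9 weeks. One pair of groups was fed or fasted for 24 hours without an antibiotic, and the other pair was fed or fasted for 24 hours at the end of 21 days of tetracycline. The stated purpose of the series concerns the loss of AKK, an abbreviation its description leaves unexplained, under the antibiotic, and what that does to expression in either feeding state. The labels list 4 samples, 1 per group. The tables themselves were computed from 4 libraries each, 2 fasted and 2 fed, whose counts could be recovered from the deposited means. Which of these libraries belongs to which labelled sample is unknown, and no source used here says whether they are separate animals, so the authors' p-values measure only the spread between these libraries. Recovered values are therefore given library by library, with no SD. Crypts were released by shaking in a chelating buffer and then treated with trypsin, and the libraries did not keep the strand.

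Epithelial cells of the intestine set the volume and pH of the fluid above them by moving chloride, bicarbonate and sodium, and water follows. Carbonic anhydrases supply bicarbonate and protons from carbon dioxide. Crypt cells secrete chloride and bicarbonate through channels such as CFTR, while villus and surface cells absorb sodium and chloride by running a sodium-proton exchanger beside a chloride-bicarbonate exchanger of the SLC26 family. Best2 is best known in the gut as a bicarbonate channel of colonic goblet cells, and Car1, Car4, Slc26a3 and Aqp8 are strongly expressed in the colon.

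The tables differ in precision. Normalized counts, which are reads per gene divided by the library's size factor, sum over genes to a mean of 65863261 per library in the table without tetracycline and 65327199 in the table with it. The size factors spanned a 1.17-fold range without tetracycline and a 1.75-fold range with it, and the median standard error of a gene's log2 change was 0.34 and 0.49. A gene is called here when the authors' adjusted p, from DESeq2 with Benjamini-Hochberg adjustment, is under 0.05. Of 18100 tested genes without tetracycline, 1.06% rose and 1.22% fell with fasting by this rule, and of 17993 with tetracycline, 0.333% rose and 0.267% fell. No column gives the direction; fasted over fed is taken from how the tables are named. The small-intestinal label was checked against markers. Gata4, Pdx1 and Onecut2 are transcription factors of the proximal small intestine, on a list added after results were known. Together they lay between 13247 and 21547 normalized counts in all 8 libraries, with Gata4 the largest part. Pdx1 was at 876 and 1056 fasted against 1212 and 1922 fed without tetracycline, and at 659 and 969 against 2054 and 2419 with it. Its log2 changes were -0.70 (adjusted p = 0.35) and -1.46 (adjusted p = 0.0605). Onecut2 changed by 0.52 and -0.40 and Gata4 by 0.01 and -0.20, and none of the 3 was called. Their part in the changes below was not tested. Of 8 markers of the large intestine Hoxa13, Hoxd13, Prac1 and Fxyd4 had no row in either table, and Hoxb13, Cyp2c55, Slc37a2 and Retnlb had one, with values given beside Aqp8 and Car2. In bulk RNA, fewer cells of a type and less RNA per cell cannot be told apart, and this holds for every change below.

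Aqp8, a water channel of the apical membrane that also passes hydrogen peroxide and ammonia, fell with fasting in both tables. It lies at chr7:123462291-123468004 on the plus strand (mm10). Without tetracycline its normalized count was 57.8 and 108 in the fasted libraries against 618 and 1612 in the fed ones. With tetracycline it was 114 and 322 in the fasted libraries against 913 and 2050 in the fed ones. Fasted and fed libraries did not overlap in either table, and the highest fasted value of all was below the lowest fed one. The authors' deposited table gave a 13.5-fold fall without tetracycline (log2 change -3.76, SE 0.47, DESeq2 adjusted p = 8.49e-13) and a 6.82-fold fall with it (-2.77, SE 0.64, adjusted p = 0.00544). Fed libraries of one table differed from each other by 2.61-fold and 2.25-fold, and leaving out 1 library at a time, with no test, moved the log2 change. Without tetracycline it ran from -4.27 (without fed library 1) to -2.89 (without fed library 2), and with it from -3.69 (without fasted library 2) to -2.06 (without fed library 2).

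The window around the RefSeq start of Aqp8 is printed because this gene has the steepest called change of the list, and that of Aqp1 because it moved the other way. Each runs from 250 bases before to 50 bases after the start, read 5′ to 3′ on the plus strand of GRCm38.p6, and capitals mark a match to a CDX-type motif, TTTATNG. The Aqp8 window is chr7:123462044-123462343 and the Aqp1 window is chr6:55336049-55336348.
Aqp8: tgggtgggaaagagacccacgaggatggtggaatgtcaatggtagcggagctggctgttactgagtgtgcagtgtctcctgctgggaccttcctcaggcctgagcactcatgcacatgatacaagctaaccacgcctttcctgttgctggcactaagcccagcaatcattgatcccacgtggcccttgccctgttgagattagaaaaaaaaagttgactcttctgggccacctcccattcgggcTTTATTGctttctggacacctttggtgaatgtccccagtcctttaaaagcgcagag
Aqp1: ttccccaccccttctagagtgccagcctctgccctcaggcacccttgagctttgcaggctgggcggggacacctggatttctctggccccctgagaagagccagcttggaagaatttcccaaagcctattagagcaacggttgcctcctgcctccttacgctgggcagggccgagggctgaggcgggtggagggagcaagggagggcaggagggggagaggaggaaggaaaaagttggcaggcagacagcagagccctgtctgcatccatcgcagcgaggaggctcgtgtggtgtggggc
The match in Aqp8 begins 6 bases before the start, and the Aqp1 window has none. On both strands, the letters TTTATNG occurred in 10.9% of 32851 RefSeq promoters, TATAAA in 13.6%, AGATAA in 11.2% and AGGTCA in 16.3%. The last 3 were in neither window. Of the 6 listed genes with an entry, Slc26a3 held TATAAA beginning 30 bases and AGGTCA beginning 133 bases before its start, and Car4 held TATAAA 42 bases after it, overlapping a TTTATNG match on the other strand. The motifs and the windows were chosen after values were seen, and a match is a run of letters, not tested as a binding site. Car1, Car2, Best2 and Slc9a2 were not matched.

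Car2, the abundant cytosolic carbonic anhydrase that makes bicarbonate in many epithelia and in red blood cells, was the other listed gene called with tetracycline. It lies at chr3:14886273-14900770 on the plus strand. With tetracycline its normalized count was 1712 and 1746 in the fasted libraries against 7732 and 4506 in the fed ones. Without tetracycline it was 1756 and 1628 in the fasted libraries against 2273 and 4348 in the fed ones. All 4 fasted libraries thus lay between 1628 and 1756, and the fed ones were higher and more scattered. The authors' deposited table gave a 3.54-fold fall with tetracycline (log2 change -1.82, SE 0.44, adjusted p = 0.00802). Without tetracycline the change of -0.97 (SE 0.34, adjusted p = 0.121) did not pass the threshold, although the libraries did not overlap. Leaving out 1 library at a time gave -2.16 to -1.38 with tetracycline, and -1.36 to -0.43 without, the latter when fed library 2 was left out.

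Markers of other cells and tissues were set beside these genes, and some differed between fed and fasted libraries. The 4 red-cell markers with library values in both tables (Hbb-bt, Alas2, Slc4a1 and Epb42) summed to 2734 and 3963 in the fasted and 11857 and 42891 in the fed libraries without tetracycline, and to 8079 and 1529 against 14104 and 11394 with it; 5 of 6 tested red-cell genes were called lower without tetracycline and 0 of 6 with it. On both fed sides the library with the higher red-cell sum also had the higher Car2. The large-intestinal, lymphocyte and pancreatic sums below, and the stromal and muscle sum given beside Aqp1, had the same order there. The gastric sum had it without tetracycline only. On the fasted sides the 2 libraries had nearly the same Car2 at red-cell sums that differed. The 4 large-intestinal markers with a row (Hoxb13, Cyp2c55, Slc37a2 and Retnlb) summed to 4422 and 1904 in the fasted against 10525 and 15646 in the fed libraries without tetracycline. With tetracycline the sums were 928 and 3248 against 8379 and 7161. Of 3 tested without tetracycline 2 were called lower, and 0 of 2 with it. The called genes were Cyp2c55, at 3916 and 1360 fasted against 9423 and 12820 fed (log2 change -2.08, SE 0.42, adjusted p = 0.000178), and Slc37a2, at 462 and 535 against 1099 and 2820 (-1.98, SE 0.41, adjusted p = 0.00022). With tetracycline Cyp2c55 was at 536 and 2289 against 5435 and 4917, and Slc37a2 at 382 and 955 against 2929 and 2235. Hoxb13, a transcription factor of the hindgut, was at 0 in every fasted library and at 0 and 9.04, and 14.2 and 6.47, in the fed ones. Retnlb, a gene of colonic goblet cells, went the other way, at 44.0 and 8.60 fasted against 3.97 and 0 fed without tetracycline and at 10.7 and 4.13 against 0 and 2.16 with it. Lymphocyte markers, 8 genes, summed to 5796 and 11316 fasted against 13441 and 16918 fed without tetracycline, where 3 were called lower, and to 18798 and 3164 against 56993 and 14972 with it, where 0 were called. The 7 gastric markers with a row overlapped without tetracycline, and with it summed to 1277 and 505 against 2656 and 9417, with Muc5ac called lower. The 8 pancreatic markers summed to 536 and 686 against 501 and 1642 without tetracycline and to 814 and 614 against 1094 and 1031 with it, and none was called. The ileal gene Fabp6 fell in the table without tetracycline, at 583 and 330 fasted against 13400 and 18580 fed (log2 change -5.13, adjusted p = 1.46e-48), and was at 728 and 4434 against 14360 and 9523 with it (-2.21, adjusted p = 0.268). The part of any of these in the fall of Aqp8 and Car2 was not tested.

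Car4, the membrane-anchored carbonic anhydrase of the brush border, sat at chr11:84957786-84966044 (plus strand) and had a different pattern. Without tetracycline its normalized count was 8043 and 9094 fasted against 7161 and 10262 fed, so the fed libraries enclosed the fasted ones. With tetracycline it was 10082 and 12814 fasted against 4823 and 6667 fed, and the libraries did not overlap. The deposited log2 change was -0.02 (SE 0.28, adjusted p = 0.993) without and 0.99 (SE 0.40, adjusted p = 0.594) with tetracycline, and neither passed. Car4 and Car2, members of one enzyme family, thus stood on opposite sides of fed levels in the fasted libraries with tetracycline, though only the change of Car2 was called.

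Car1, a cytosolic carbonic anhydrase of colonic epithelium and red cells, lies at chr3:14766216-14808368 (minus strand). It had a row only with tetracycline, with counts of 187 and 0 in the fasted libraries and 0 and 6 in the fed ones. Normalized, these are 154 and 0 against 0 and 6.47, so the deposited log2 change of 4.58 (SE 4.60) rests on a single library on each side. Without fasted library 1 the change became -2.08 on the log2(normalized count + 1) scale. In fasted libraries 1 and 2 the red-cell sum was 8079 and 1529, the large-intestinal sum 928 and 3248, and Retnlb 10.7 and 4.13. Their part in the Car1 counts was not tested. Every row with recovered counts held a total of at least 2, and a missing row in the other table does not show that Car1 was absent there.

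Best2 (chr8:85007202-85014531, minus strand) was close to the limit of detection in fed mice in both tables and present in every fasted library. Without tetracycline it had 15 and 16 counts in the fasted libraries against 2 and 0 in the fed ones. With tetracycline it had 109 and 21 counts in the fasted libraries against 1 and 0 in the fed ones. Normalized, the fasted values were 13.8 and 17.2 without tetracycline and 89.7 and 28.9 with it. The 2 fasted libraries were alike without tetracycline, whereas with it 75.6% of the normalized fasted signal came from library 1. Without tetracycline the summed counts over the summed size factors of the fasted libraries were 15.4 times those of the fed ones, with a 95% exact interval of 3.91 to 132 that covers counting error only and rests on 2 fed counts. The deposited log2 change without tetracycline was 3.96 (SE 1.62, adjusted p = 0.25) and did not pass, and with tetracycline it was 7.04 (SE 1.68). On a log2 scale with a pseudocount of 1 the changes were 3.05 and 5.43. A fitted change against counts this low depends on how they are treated. On that scale, leaving out 1 library at a time gave 2.465 to 4.04 without tetracycline and 4.42 to 6.02 with it. Of 8 goblet-cell markers, 2 were higher in fasted mice without tetracycline and 6 with it, with Agr2 called lower without tetracycline and no other call in either table. Those with library values, Agr2, Spink4 and Spdef, summed to 25108 and 30543 fasted against 44774 and 59734 fed without tetracycline, and to 35448 and 20153 against 22360 and 33496 with it. Markers of Paneth cells, the antimicrobial cells of the crypt base, were higher in fasted mice: all 7 without tetracycline, of which 4 were called, and all 7 with it, of which 0 were called. Among them Defa17, Mmp7 and Ang4 summed to 63443 and 78325 fasted against 35857 and 26578 fed without tetracycline, and to 120860 and 22887 against 26639 and 42581 with it. Retnlb, the gene of colonic goblet cells given above, was higher in each fasted library than in either fed one in both tables. It was not called, and Hoxb13, Cyp2c55 and Slc37a2 of the same list were lower on average in fasted mice. The part of any of these cells in the Best2 counts was not tested.

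**Figure D1:**
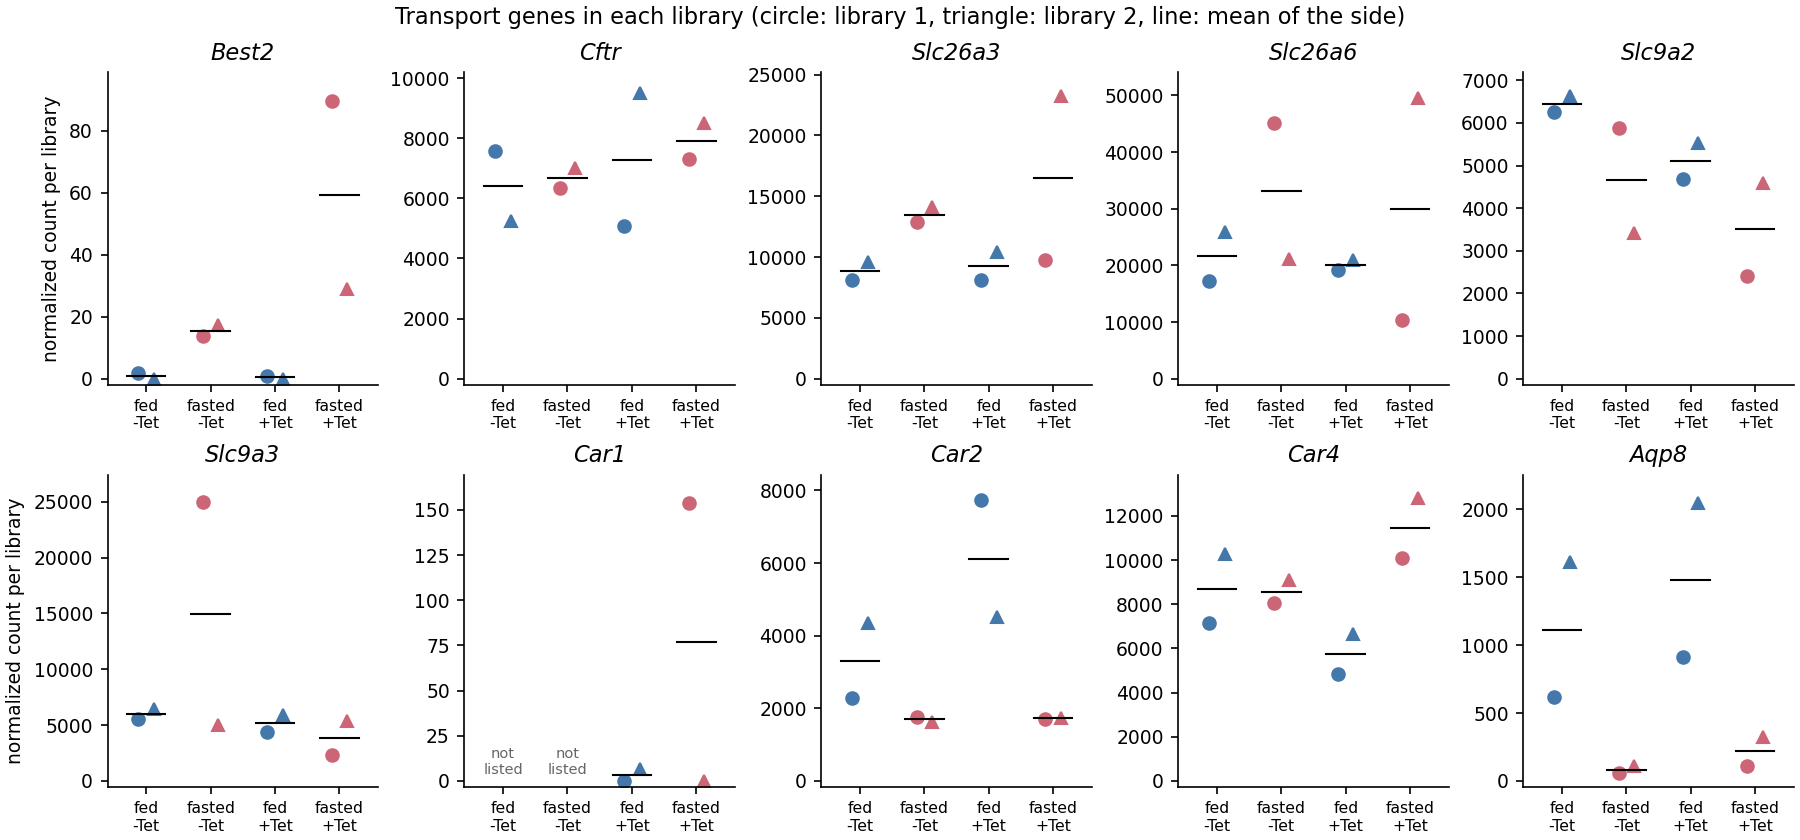
Normalized count (y axis, linear from 0) of each listed gene in the fed and fasted libraries without (-Tet) and with (+Tet) tetracycline. Circles are library 1 and triangles library 2 of each side, and the line is their mean; Aqp8 and Car2 are lower in all fasted libraries than in the fed ones of the same table, and Best2 is near 0 in fed mice.

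The genes whose library pattern was most like that of Best2 were found by Pearson correlation over the 8 libraries, with log2(normalized count + 1) centred within each table, among 5504 protein-coding genes. They included Me3 (r = 0.987), a mitochondrial malic enzyme, Lrrc36 (0.985), Rps18-ps6 (0.973) and Hpn (0.972), a transmembrane serine protease. The 8 points share the fasting contrast and the size factors, and Best2 was chosen for that contrast, so these values only describe. Me3 was at 248 and 297 in the fasted libraries against 130 and 97.5 in the fed ones without tetracycline, and at 421 and 200 against 86.6 and 71.2 with it. Hpn was at 94.5 and 156 against 30.8 and 24.1, and at 202 and 111 against 29.9 and 25.9. In both genes fasted library 1 was the higher of its side with tetracycline and the lower without it, as for Best2. Rps18-ps6 is named as a pseudogene of a ribosomal protein gene and may share reads with its parent. Over the same libraries r with Best2 was -0.93 for Aqp8, -0.91 for Car2, -0.78 for Slc9a2, -0.11 for Slc9a3, 0.02 for Slc26a6, 0.22 for Cftr, 0.52 for Slc26a3 and 0.60 for Car4.

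Cftr, the cAMP-regulated chloride and bicarbonate channel of crypts (chr6:18170687-18322768, plus strand), showed no change that these libraries could resolve. Its normalized count was 6342 and 7007 fasted against 7579 and 5240 fed without tetracycline, and 7321 and 8503 against 5074 and 9488 with it. In both tables the fed libraries enclosed the fasted ones. The deposited log2 changes were 0.06 (SE 0.28, adjusted p = 0.985) and 0.12 (SE 0.46, adjusted p = 0.9999). An antisense gene, Gm15592, shares 129 exonic bases with Cftr, and without strand its reads cannot be told apart from those of Cftr there.

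Slc26a3, the chloride-bicarbonate exchanger whose loss causes congenital chloride diarrhoea in people, was higher on average in fasted libraries, and neither change passed. It lies at chr12:31390871-31473917 (plus strand). Without tetracycline its normalized count was 12876 and 14097 fasted against 8154 and 9554 fed, with no overlap (log2 change 0.61, SE 0.25, adjusted p = 0.265). With tetracycline it was 9722 and 23236 against 8081 and 10396, which overlap (0.83, SE 0.52, adjusted p = 0.9999). Leaving out 1 library at a time gave 0.50 to 0.73 without tetracycline and 0.07 to 1.33 with it, the lowest without fasted library 2.

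Slc26a6, an exchanger of chloride, bicarbonate and oxalate on the brush border (chr9:108853283-108913049, plus strand), had the widest spread within a side among the abundant genes of the list with tetracycline. Its normalized count was 45087 and 21139 fasted against 17325 and 25811 fed without tetracycline, and 10399 and 49557 against 19167 and 20963 with it. The 2 fasted libraries with tetracycline differed 4.77-fold, while the fed ones differed 1.09-fold. The changes of 0.62 (SE 0.37, adjusted p = 0.599) and 0.58 (SE 0.68, adjusted p = 0.9999) did not pass, and each turned when 1 library was left out: the first became -0.03 without fasted library 1, and the second became -0.95 without fasted library 2 and 1.30 without fasted library 1.

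Slc9a3, the main sodium-proton exchanger of sodium absorption (chr13:74121457-74169442, plus strand), was likewise set by 1 library. Its normalized count was 25010 and 4973 fasted against 5580 and 6470 fed without tetracycline, so 83.4% of the fasted signal came from library 1. With tetracycline it was 2361 and 5390 against 4382 and 5911. The changes were 1.32 (SE 0.97, adjusted p = 0.723) and -0.41 (SE 0.52, adjusted p = 0.9999), and without fasted library 1 the former turned to -0.28. Slc9a2, a second apical sodium-proton exchanger (chr1:40680574-40769273, plus strand), was lower in each fasted library than in either fed one in both tables. It was at 5891 and 3416 fasted against 6261 and 6636 fed without tetracycline, and at 2419 and 4591 against 4681 and 5519 with it. Neither change passed (-0.47, SE 0.31, adjusted p = 0.668; -0.54, SE 0.46, adjusted p = 0.9999). Leaving out 1 library at a time gave -0.92 to -0.13 without tetracycline, the latter without fasted library 2, and -1.08 to -0.15 with it.

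The spread within a side of several listed genes ran alongside an enterocyte gene. Treh, the trehalase of the enterocyte brush border, was at 28775 and 10935 in the fasted and 11713 and 21607 in the fed libraries without tetracycline, and at 5930 and 40793 against 15577 and 15942 with it. It was the only one of 9 enterocyte markers whose counts were recovered by library. Of the 9, 7 were higher in fasted mice in both tables, with a median log2 change of 0.58 without and 0.82 with tetracycline, and Fabp1 alone was called, higher without tetracycline (1.08, SE 0.27, adjusted p = 0.00656). The library with the higher Treh of its side also had the higher Slc26a6, Slc9a2 and Slc9a3 on all 4 sides. It had the higher Slc26a3, Car4 and Aqp8 on 3, the exception being the fasted side without tetracycline. It had the higher Car2 on 3 as well, the exception being the fed side with tetracycline. Cftr followed Treh on fewer sides, and Best2 on none. On the fed side with tetracycline Treh hardly differed, at 15577 and 15942. The Paneth-cell sum given beside Best2 was the lower one in the fasted library with the higher Treh in both tables and in the fed one without tetracycline, and the higher one in the fed library with tetracycline. The ileal bile-acid genes Fabp6, Slc10a2, Slc51a and Slc51b, a list added after results were known, summed to 24560 and 9774 fasted against 30464 and 36957 fed without tetracycline, and to 6805 and 24533 against 23039 and 17598 with it. Fabp6, given above, was the only one of the 4 called, and Slc10a2, Slc51a and Slc51b had log2 changes of -0.96, -0.03 and 0.16 without and of 0.49, 0.73 and 0.41 with tetracycline. What part these differences have in the values of the listed genes was not tested.

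**Figure D2:**
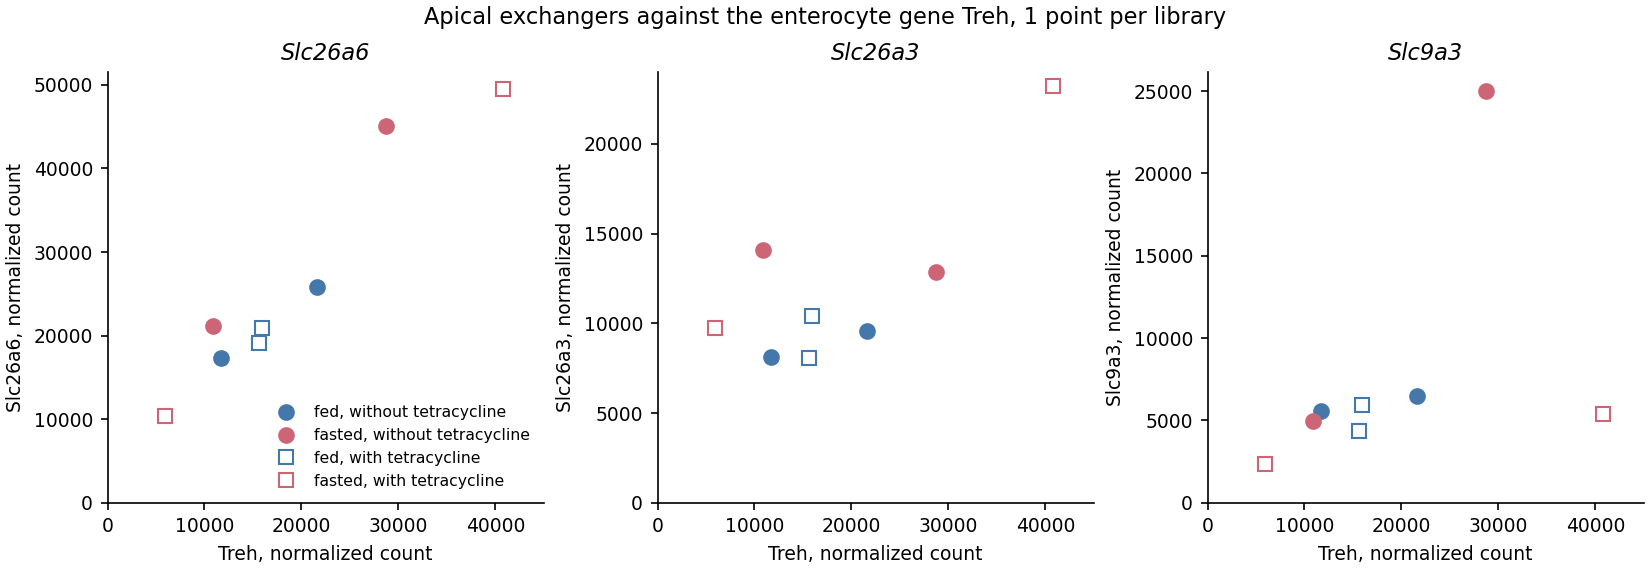
Normalized count of Slc26a6, Slc26a3 and Slc9a3 (y axes) against that of Treh (x axis), 1 point per library, fed in blue and fasted in red, filled without and open with tetracycline. Slc26a6 is lowest at a Treh of 5930 and highest at 40793, and a single fasted library without tetracycline holds the Slc9a3 value of 25010.

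**Figure D3:**
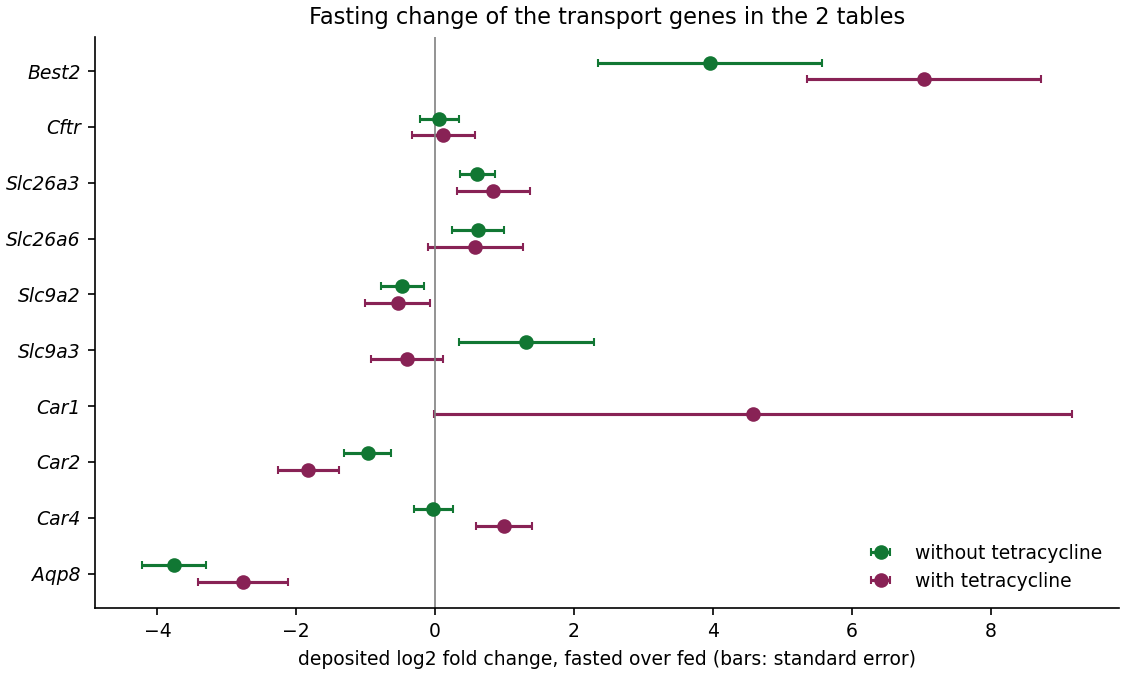
Deposited log2 fold change, fasted over fed (x axis), with its standard error as bars, for each listed gene without (green) and with (purple) tetracycline; Car1 has no row without it. Aqp8 lies left of 0 in both tables, Car2 left of 0 with the smaller error bars, and Best2 and Car1 have the widest bars of the table with tetracycline.

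Counted over the list, 1 of 9 listed genes (Aqp8, lower) was called without tetracycline. With it, 2 of the 8 that were open to a test (Aqp8 and Car2, both lower) were called. Of all tested genes, 1.06% were called higher and 1.22% lower without tetracycline, and 0.333% higher and 0.267% lower with it. The list is short and was chosen with results known, so its counts are not evidence about transport genes at large. Whether the fasting change differed between the tables was tested for the 8 genes with a Wald test of the difference of the deposited changes. It was adjusted over 17571 genes, of which 0.0228% were called and 185 had an unadjusted p under 0.05. Over these genes the test statistic had an SD of 0.73, under the 1 expected with no difference. The test was thus conservative, and a missing call does not show equal changes. None of the 8 passed, all with an adjusted p of 1, and 1 had an unadjusted p under 0.05. That was Car4, whose change was higher by 1.02 on the log2 scale with tetracycline (SE 0.49, unadjusted p = 0.0378). For Slc9a3 the difference was -1.72 (SE 1.10), for Car2 -0.86 (SE 0.55) and for Aqp8 0.99 (SE 0.79). That Car2 was called with tetracycline and not without it is therefore not shown to be a difference between them. Best2 differed by 3.08 (SE 2.33) and was not tested.

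Levels with and without tetracycline can be set side by side only across tables that were scaled separately, with no test. After centring on the median gene, Slc9a3 in fasted mice was lower with tetracycline by a log2 ratio of -2.02, which is the 25010 of 1 library against the rest. Best2 in fasted mice was higher by 1.80 and Aqp8 by 1.32. These also rest on single libraries: without fasted library 1 of the table without tetracycline, Slc9a3 was at -0.43 and Aqp8 at 0.94, without fasted library 1 of the other table Best2 was at 0.79, and without fasted library 2 of that table Aqp8 was at 0.38. A log2 ratio of at least 1 in either direction was seen for 1.52% of 13194 genes in fasted mice and 4.05% in fed mice. These genes had a mean of at least 50 in both tables, which leaves out Best2 (means 8.24 without and 29.8 with tetracycline). In fed mice no listed gene reached that ratio with all libraries in use. The nearest in fed mice were Car2 at 0.87 and Car4 at -0.62.

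Per kb of exon, the carbonic anhydrase Car4 and the exchanger Slc26a6 had the highest means of the list in all 4 groups. In fasted mice the ranges of the libraries overlapped with the next gene. Without tetracycline Car4 ran from 4091 to 4626 and Slc9a3 from 904 to 4544. With it Slc26a6 ran from 1922 to 9159 and Slc26a3 from 1527 to 3648. In fed mice without tetracycline Car4 stood at 4431 normalized counts per kb and Slc26a6 at 3986, with overlapping libraries. They were followed by Slc26a3 at 1390, Car2 at 1367, Slc9a3 at 1095, Slc9a2 at 923, Cftr at 825 and Aqp8 at 706. Of these neighbours, only Slc26a6 over Slc26a3 and Slc9a3 over Slc9a2 had libraries that did not overlap. Best2 was at 0.45 per kb. In fasted mice without tetracycline Aqp8 was the second lowest at 52.3 per kb, apart from Slc9a2 at 666 above it and from Best2 at 6.98 below it. With tetracycline the fasted order ended with Aqp8 at 138, Car1 at 61.6 and Best2 at 26.7, neighbours that overlapped. In fed mice with tetracycline Car2 ranked next, at 2527 per kb, overlapping Car4 at 2922 and apart from Slc26a3 at 1451.

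**Figure D4:**
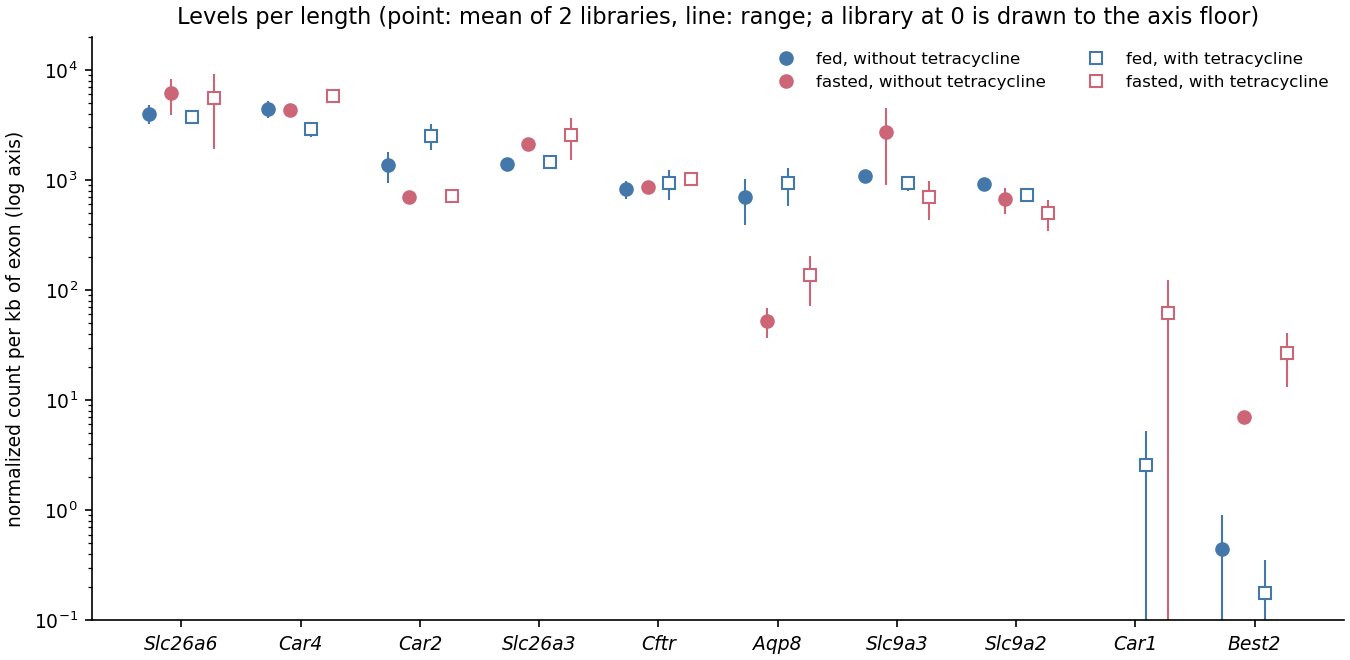
Normalized count per kb of exon (log y axis) of each listed gene; points are means of 2 libraries and lines their range, fed in blue and fasted in red, filled without and open with tetracycline. Car4 and Slc26a6 have the highest means in all 4 groups, the mean of Aqp8 drops from 706 to 52.3 without tetracycline, and Best2 has the lowest mean.

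A list of 53 further genes of the same transport system gave a single call. Without tetracycline 46 were tested, 1 was called higher and 0 lower, and 12 had an unadjusted p under 0.05. With it 45 were tested, 1 was called higher and 0 lower, and 6 had such a p. Over all tested genes, 10.8% and 5.34% had an unadjusted p under 0.05. The list's median log2 change was 0.33 without and 0.41 with tetracycline, against 0.01 and -0.02 over all tested genes, and 31 of 46 and 32 of 45 were above 0, against 50.5% and 48.2% of all tested genes. These genes were chosen with earlier results known, and no test of the list was made.

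The called gene was Aqp1, the water channel of capillary endothelium and of some epithelia, and it moved opposite to Aqp8. It was at 20730 and 20920 fasted against 8993 and 9641 fed without tetracycline, and at 23210 and 28170 against 6366 and 9344 with it. Fasted and fed libraries were well apart in both tables (log2 change 1.16, SE 0.24, adjusted p = 0.000262; 1.71, SE 0.41, adjusted p = 0.00746). The 8 stromal and muscle markers summed to 137 and 390 fasted against 460 and 1674 fed without tetracycline, and to 636 and 228 against 815 and 491, which overlap, with it. Of the 8, 1 was higher in fasted mice and 3 were called lower without tetracycline, and 2 were higher and 0 called with it. The 8 include no marker of endothelium, and their part in the Aqp1 values was not tested. The other aquaporins Aqp3, Aqp4, Aqp7 and Aqp11 were not called, with changes from -0.13 to 0.73 without and from 0.64 to 0.86 with tetracycline.

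Among the other groups nothing was called. The sulfate exchanger Slc26a1 had 14.7 and 12.9 normalized counts fasted against 1.99 and 0 fed without tetracycline (log2 change 3.79, SE 1.67, adjusted p = 0.321), and 0 and 20.6 against 3.15 and 3.24 with it. Car3, a carbonic anhydrase of muscle and fat, was at 0 and 1.38 fasted against 35.4 and 9.71 fed with tetracycline (-5.36, SE 1.88, adjusted p = 0.32), and at 7.34 and 0 against 0 and 13.1 without it. The mitochondrial carbonic anhydrase Car5a changed by 1.40 (SE 1.17, adjusted p = 0.783) without tetracycline. Named after their values were seen, genes that drive or regulate secretion were in part apart. Chrm3, the muscarinic receptor that links acetylcholine to secretion, was at 436 and 481 fasted against 248 and 201 fed without tetracycline (1.03, SE 0.32, adjusted p = 0.0528), and at 610 and 443 against 202 and 258 with it (1.20, SE 0.44, adjusted p = 0.404). Kcne3, the potassium channel subunit that supports chloride secretion, was at 1643 and 2376 fasted against 4310 and 2822 fed without tetracycline (-0.83, SE 0.32, adjusted p = 0.203), and at 2639 and 1234 against 2165 and 4411, which overlap, with it (-0.76, SE 0.56, adjusted p = 0.9999). Of the epithelial sodium channel, Scnn1a was at 1166 to 1272 in the 4 libraries without tetracycline. With it Scnn1a was at 1210 and 1255 fasted against 731 and 1098 fed (0.43, SE 0.41, adjusted p = 0.9999). Scnn1b had a row only with tetracycline, at no more than 1.08 per library, and Scnn1g had none.

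**Figure D5:**
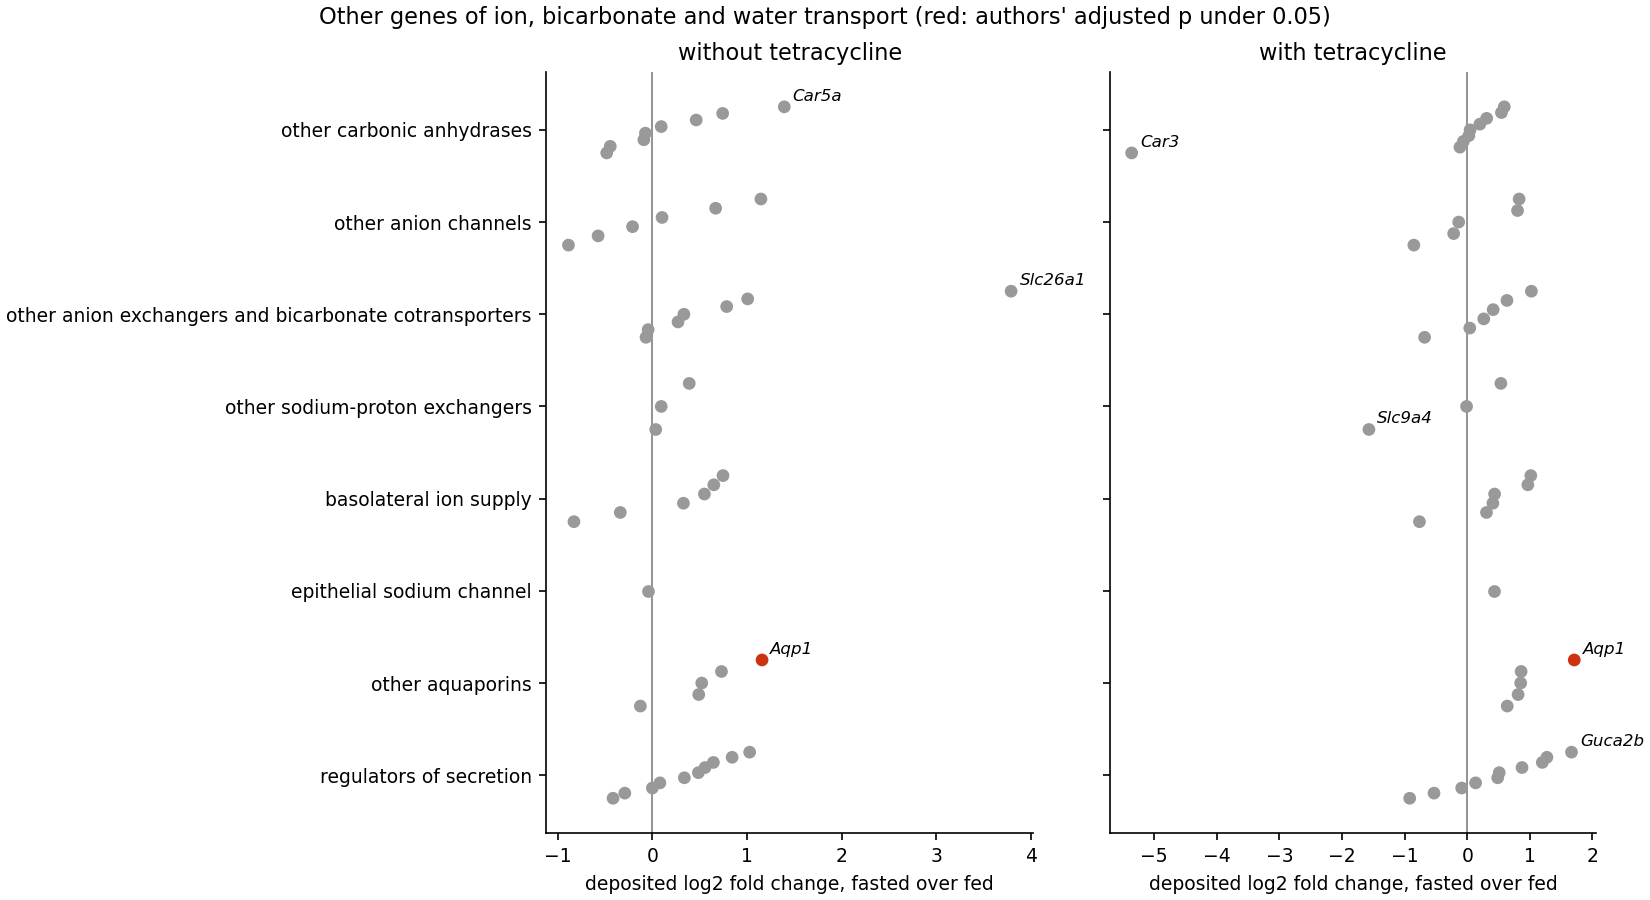
Deposited log2 fold change, fasted over fed (x axis), of the tested genes of the transport list by role (y axis), without and with tetracycline; red points have an authors' adjusted p under 0.05 and the farthest points are named. Aqp1 is the red point in both panels, and most other points lie between -1 and 1.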

How the data were processed

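Per the submitters' processing notes, reads were handled with Salmon and DESeq2 on mm10, with no versions given; the annotation release is not given in the sources used here. Per the file headers, the deposited columns are those DESeq2 writes: a mean signal (the average normalized count over a table's libraries), a log2 fold change with its standard error, a test statistic, which is a score, and p-values with and without Benjamini-Hochberg adjustment. There are 0 unused per-sample columns.

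From the deposited means, whole counts in 4 libraries per table were recovered: each mean is a sum of whole counts times 1 step per library, and a set of counts was kept when refitting the 2-group model gave the deposited log2 change to within 1e-09. This held for 16138 of 16142 genes with a mean up to 500 without and 16534 of 16538 with tetracycline, and for every listed gene. The fit's reference level was the side read as fasted in all recovered genes. In alphabetical order, R's default, "fast" comes before "fed", and no column states the direction. Libraries of a side are numbered by size factor, the larger first. Nothing ties them to labelled samples, so no count test of their own was run, and intervals cover counting error only. Steps were tested on simulated data.

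Lengths and positions are from GENCODE M21 (GRCm38). Named were the listed genes, the called genes of the wider list plus the 3 with the largest change per table at a mean of at least 5, and the 5 genes most like Best2; others are said to be chosen after their values were seen. A few genes of the lists and of that rule are not reported here, and the sums leave them out. The members and lists were chosen with earlier results of these data known. Alternatives were a threshold of 0.01, other adjustments, a pseudocount, centring on the median gene and leaving out each library. Python 3.11.15, numpy 2.4.6, pandas 2.3.3, scipy 1.17.1 and matplotlib 3.10.9 were used.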

Additional observations from a re-analysis of the deposited data

How the results depend on the processing

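The counts of called genes, for the 10 listed genes, for the wider list and for the difference between tables, and the count of levels past a log2 ratio of 1, stayed within 1.5 times under 16 alternatives of threshold, adjustment, filter, scaling or pseudocount. Leaving out 1 library, an alternative chosen after seeing the data, put the number of listed genes with a level past that ratio, 3 with all libraries, between 1 and 4; it was 1 without fasted library 1 of the table without tetracycline. Of 114 alternatives for single genes, 10 turned the sign, each by leaving out 1 library; none of the 10 concerned a called change. Among changes larger than their SE, 2 turned, both without fasted library 1 and without tetracycline, where Slc26a6 became -0.029 and Slc9a3 -0.277, against highs of 1.06 and 2.05 without fasted library 2. With tetracycline Car1 turned to -2.08 and Slc9a3 to 0.067 without fasted library 1, Slc26a6 to -0.95 without fasted library 2 and Cftr to -0.26 without fed library 1. Without tetracycline the small changes of Car4 and Cftr turned under 2 alternatives each. Leaving out 1 library gives a value with no test. No paired analysis was possible because the deposited columns carry no replicate numbers. The depth limits Best2 and Car1, whose fed counts are at most 6, and every value rests on 2 libraries a side.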
